A study of Mus musculus with 15 samples.

Results

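The genes described here are 36 mouse genes of glucose uptake, glycolysis, pyruvate handling and the hypoxia response, all of them found by symbol among 57180 Ensembl genes in brainstem RNA-seq libraries. The study compared 15 libraries in 5 groups of 3. In the AMPK experiment, libraries labelled AMPK-/- (AMPKα2-/-, mice that lack the α2 catalytic subunit of the AMP-activated protein kinase) were compared with AMPK+/+ littermates (WT). In the Lmx1b experiment, prenatal brainstem labelled LMX1B+/- or LMX1B-/-, with 1 or 0 intact copies of the transcription factor gene Lmx1b, was compared with LMX1B+/+ (WT). The study used mice of postnatal days 1 to 5 but did not tie an age to each AMPK library, and the embryonic day of the Lmx1b libraries was not given in the sources used here. Both alleles were carried by the whole animal, the study describes Lmx1b-/- as lethal before birth, and no group was treated with a drug. The question asked of these genes was how each genotype differed from WT at the level of single enzymes and of the regulators above them.

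Glycolysis splits glucose into pyruvate in the cytosol. Glucose enters through transporters of the SLC2 family, hexokinase and phosphofructokinase commit it to the pathway, and pyruvate is then either reduced to lactate by lactate dehydrogenase and exported by monocarboxylate transporters, or burned in mitochondria after the pyruvate dehydrogenase complex, which pyruvate dehydrogenase kinases switch off. Under low oxygen, the alpha subunits of the hypoxia-inducible factors (HIF-1α, encoded by Hif1a, and HIF-2α, encoded by Epas1) escape the prolyl hydroxylases of the EGLN family and raise the transcription of many of these genes, together with Vegfa, Bnip3, Ankrd37 and Ddit4. AMPK senses a fall in cellular energy and is known to act on glycolysis through the PFKFB enzymes.

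HIF binds a short core, ACGTG or GCGTG, on either strand. Windows of 300 bases (250 before to 50 after a RefSeq start, build GRCm38.p6) were held for 34 of the 36 genes, and 30 of these 34 (88.2%) had at least 1 core in at least 1 window, against 46.7% of 27025 genes of the same table. By window the shares were 40 of 51 (78.4%) and 43.8%. The windows of the 36 genes were also richer in CpG, with a median of 20 CpG against 7 over all windows, and both cores hold a CpG. The windows below belong to 5 of the 7 genes that passed the test in Lmx1b+/- brainstem under every setting tried (the others are Epas1, and Vegfa, whose 2 windows hold 0 and 2 cores), and are printed on the gene's strand with each core, or its complement CACGT or CACGC, in capitals.
Pfkp (chr13:6648722-6649021, - strand): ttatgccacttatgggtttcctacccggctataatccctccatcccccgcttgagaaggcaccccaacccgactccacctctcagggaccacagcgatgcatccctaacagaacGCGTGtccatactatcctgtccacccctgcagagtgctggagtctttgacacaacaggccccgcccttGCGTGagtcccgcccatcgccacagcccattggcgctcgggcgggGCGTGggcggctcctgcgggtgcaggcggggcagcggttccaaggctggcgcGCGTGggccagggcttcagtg
Pgk1 (chrX:106186850-106187149, + strand): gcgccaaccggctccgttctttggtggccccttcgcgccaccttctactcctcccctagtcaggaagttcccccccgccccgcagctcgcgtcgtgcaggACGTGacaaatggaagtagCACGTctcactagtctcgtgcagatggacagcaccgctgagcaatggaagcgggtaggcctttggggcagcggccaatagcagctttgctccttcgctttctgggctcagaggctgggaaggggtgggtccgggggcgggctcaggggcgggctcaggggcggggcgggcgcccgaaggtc
Slc16a1 (chr3:104638414-104638713, + strand): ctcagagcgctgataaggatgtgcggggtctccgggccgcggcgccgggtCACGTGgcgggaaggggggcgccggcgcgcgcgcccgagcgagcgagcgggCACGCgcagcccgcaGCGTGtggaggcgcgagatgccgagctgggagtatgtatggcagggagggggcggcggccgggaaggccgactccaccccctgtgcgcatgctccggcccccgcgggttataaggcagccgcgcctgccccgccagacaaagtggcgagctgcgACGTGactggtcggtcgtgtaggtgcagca
Slc16a3 (chr11:120948817-120949116, + strand): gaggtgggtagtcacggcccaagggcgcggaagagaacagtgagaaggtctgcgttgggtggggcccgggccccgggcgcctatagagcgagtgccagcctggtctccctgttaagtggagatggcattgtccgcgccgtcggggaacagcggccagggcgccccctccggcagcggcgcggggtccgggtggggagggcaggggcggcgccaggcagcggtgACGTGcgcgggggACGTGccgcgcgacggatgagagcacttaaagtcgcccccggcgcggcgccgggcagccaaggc
Pdk1 (chr2:71872974-71873273, + strand): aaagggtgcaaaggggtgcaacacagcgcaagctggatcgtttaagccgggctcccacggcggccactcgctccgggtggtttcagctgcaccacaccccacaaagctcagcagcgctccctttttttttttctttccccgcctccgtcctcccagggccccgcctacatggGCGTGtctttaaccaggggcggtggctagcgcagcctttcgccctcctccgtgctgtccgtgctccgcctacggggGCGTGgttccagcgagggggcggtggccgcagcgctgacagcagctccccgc
Pfkp, with 4 cores, and Pgk1, with 2, moved in opposite directions in these libraries, as described next. The cores of Slc16a3 lie at positions -27 and -14 from the start, and those of Pdk1 at -78 and -2. Pdk1 has a second window, not printed, with 0 cores. Slc16a1 has 5 overlapping or separate matches, of which CACGTG reads as a core on both strands. The window of Tpi1 held none. A match of letters is no evidence that a factor binds there.

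Total counts were 28833130 to 37441679 per library in the Lmx1b experiment. In the AMPK experiment 4 libraries held 14975095 to 17384171 counts, while WT replicate 2 and AMPKα2-/- replicate 3 held 291212 and 335986, so that 3 counts, the limit of detection used here, correspond to 9.98 and 9.07 CPM there and to at most 0.198 CPM elsewhere. Hindbrain identity genes summed to 53.5 to 625 CPM and neuron markers to 4659.9 to 6591 CPM over the 15 libraries. In Lmx1b+/- 5 of 10 hindbrain genes were higher than in WT and 0 lower, beside 19.4% of all genes higher. Hoxa5 had the largest log2 fold change of them (1.43 ± 0.39). Their sums were 625 and 297 CPM in Lmx1b+/- replicates 1 and 2, against 139 to 292 CPM in WT, while replicate 3 lay within the WT range. CPM are counts relative to the library total, scaled by TMM. The limit of 3 counts covers counting error only, while the SE and SD given below include the spread between libraries. The 36 genes took 0.717 to 0.800% of counts in the AMPK experiment and 0.318 to 0.508% in the Lmx1b experiment. Lmx1b itself stood at 22.5, 16.0 and 9.73 CPM (WT), against 1.45, 1.13 and 0.848 CPM in the Lmx1b-/- libraries (log2 fold change -3.82 ± 0.41, adjusted p 0.00287). In Lmx1b+/- it stood at 30.5, 11.9 and 14.3 CPM and did not pass the test (0.23 ± 0.33, adjusted p 0.618). Prkaa2, which encodes AMPKα2, stood at 21.9, 26.6 and 29.7 CPM (WT), against 25.4, 22.3 and 12.1 CPM in the AMPKα2-/- libraries (-0.20 ± 0.23, adjusted p 0.659). The transcript of the gene targeted in each experiment therefore does not separate the libraries labelled AMPKα2-/- or Lmx1b+/- from WT. Which part of each gene the alleles remove was not given in the sources used here. In the AMPK experiment Lmx1b was lower, at 18.8, 13.3 and 13.5 CPM (WT) and 2.84, 9.65 and 6.04 CPM (AMPKα2-/-) (-1.35 ± 0.37, adjusted p 0.0233). The last value was under the limit of 3 counts. The study also reported Lmx1b as down-regulated there. In Lmx1b+/- Prkaa2 was lower than in WT (-0.31 ± 0.09, adjusted p 0.0162). Erythroid transcripts summed to 3551 to 7518 CPM in the libraries labelled Lmx1b+/- against 509.9 to 1251 CPM in WT and 1061 to 2383 CPM in Lmx1b-/-, and mitochondrially encoded genes took 9.58 to 14.7% against 5.57 to 6.74% of counts. Mitochondrial counts also stood apart in the AMPK experiment, at 10.4 to 13.9% in WT and 20.0 to 21.7% in AMPKα2-/-. AMPK WT replicate 3 held 1027 CPM of skeletal muscle transcripts against 9.07 to 16.6 CPM in the other 5. The labels name separate samples but not separate animals, so p-values measure the spread between these libraries. The genotype and these features of the libraries cannot be told apart, and their part in the results below was not tested. In bulk tissue, fewer cells of a type and less RNA per cell cannot be told apart either.

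**Figure D1:**
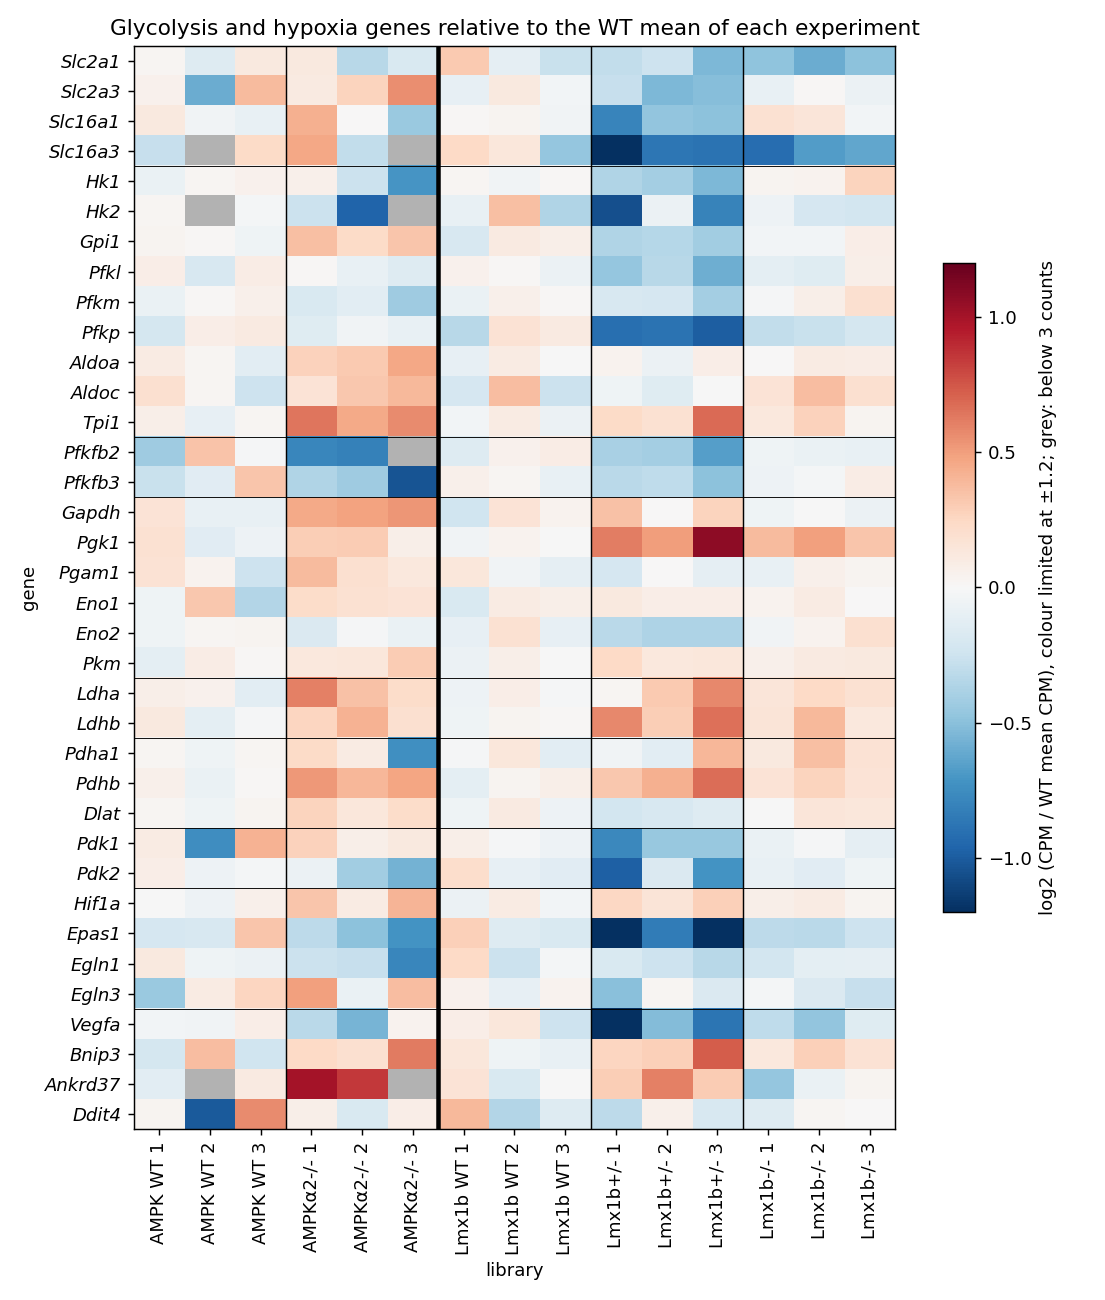
Level of each of the 36 genes (rows, ordered by role) in each of the 15 libraries (columns), as log2 of CPM over the mean CPM of the WT libraries of the same experiment; red is above and blue below WT, and grey marks values under 3 counts, which were also left out of the WT mean. In the 3 libraries labelled Lmx1b+/- most rows of the transporters and the upper pathway are blue, while Pgk1, Ldhb and Pdhb are red.

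The clearest differences were in brainstem labelled Lmx1b+/-. Of the 36 genes, 20 passed the test against WT (55.6%), 5 higher and 15 lower, beside 36.7% of the 21729 genes tested, of which 19.4% were higher and 17.3% lower. The median log2 fold change was -0.22 over the 36 genes and -0.03 over all genes. CPM of the 2 groups did not overlap for 24 of the 36 genes (66.7%), beside 45.3% of all genes. The lower genes were mostly those of glucose and lactate transport, of the first steps of glycolysis and of their regulators, and the higher genes were Tpi1, Pgk1, Ldhb, Pdhb and Bnip3. With scaling to library size alone, which moved the median of all genes to -0.27, the split was 1 higher and 19 lower.

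Markers of other cell types differed in the same libraries. Astrocyte markers summed to 799 to 972 CPM in Lmx1b+/-, 1073 to 1476 CPM in WT and 1230.0 to 1549.8 CPM in Lmx1b-/-. In Lmx1b+/- 5 of 9 were lower than in WT (55.6%, beside 17.3% of all genes), led by Agt (-2.60 ± 0.17) and Gfap (-1.33 ± 0.28). Oligodendrocyte lineage markers summed to 282 to 354, 400.0 to 467 and 477 to 507 CPM in the same order of groups, and 7 of 9 were lower in Lmx1b+/- (77.8%). Neural progenitor markers summed to 1280.0 to 2022, 942 to 1005 and 1064 to 1172 CPM. Of these, 2 of 8 were higher (25.0%, beside 19.4% of all genes), Fabp7 of radial glia (1.35 ± 0.18) and Nes (0.34 ± 0.12). Fabp7 alone stood at 798 to 1446 CPM in Lmx1b+/- and 407 to 431 CPM in WT. Sox2, Vim, Hes5, Pax6, Mki67 and Top2a did not pass the test, with Pax6 at -0.65 ± 0.27 and Mki67 at -0.29 ± 0.17. Astrocytes, oligodendrocytes and progenitors differ in how they use glucose and lactate, and the part of these cells in the values below was not tested.

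Among the 4 transporters, 3 were lower. Slc16a1, which encodes the monocarboxylate transporter MCT1, was at 24.9, 25.2 and 24.0 CPM in WT, 14.3, 17.8 and 17.6 in Lmx1b+/- and 28.1, 27.4 and 24.2 in Lmx1b-/- (log2 fold change -0.57 ± 0.11, adjusted p 0.00175). All 3 Lmx1b+/- libraries lay under every WT and Lmx1b-/- library. Slc16a3, which encodes MCT4, the lactate exporter of glycolytic cells, was at 8.16, 7.62 and 5.02 CPM in WT, 2.97, 3.81 and 3.75 in Lmx1b+/- and 3.68, 4.37 and 4.51 in Lmx1b-/- (log2 fold change -0.97 ± 0.20, adjusted p 0.00223). Here the Lmx1b-/- libraries were also all under WT. Slc2a3, the neuronal glucose transporter GLUT3, was at 79.9, 92.7 and 83.8 CPM in WT, 70.7, 58.7 and 60.1 in Lmx1b+/- and 80.6, 86.4 and 81.5 in Lmx1b-/- (log2 fold change -0.44 ± 0.10, adjusted p 0.00378), a call lost when the length trend was removed. Slc2a1, which encodes GLUT1 of the blood-brain barrier, was at 63.6, 47.6 and 42.7 CPM in WT, 41.8, 43.1 and 35.4 in Lmx1b+/- and 36.6, 34.0 and 36.5 in Lmx1b-/-, and WT and Lmx1b+/- overlapped (log2 fold change -0.35 ± 0.14, adjusted p 0.0569). Slc2a1 passed as lower in some other settings, among them DESeq2 and scaling to library size alone. Endothelial markers, which mark cells rich in GLUT1, summed to 152 to 203 CPM in WT, 109.9 to 139.8 in Lmx1b+/- and 119 to 134 in Lmx1b-/-. In Lmx1b+/- 3 of 9 were lower than in WT (Cdh5, Kdr and Eng) and 1 was higher (Emcn), beside 17.3% and 19.4% of all genes. The part of endothelial cells in the values of Slc2a1, Epas1 and Vegfa was not tested.

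In the upper pathway 5 of 9 genes were lower and 1 was higher. Pfkp (ENSMUSG00000021196), the platelet-type phosphofructokinase, was at 436, 619 and 591 CPM in WT, 293, 296 and 277 in Lmx1b+/- and 448, 457 and 473 in Lmx1b-/-. Its Lmx1b+/- libraries lay within a narrow range far under WT (log2 fold change -0.93 ± 0.13, adjusted p 1.5e-04). The liver-type Pfkl (96.8, 94.1 and 88.8 CPM in WT, 67.5, 74.0 and 62.0 in Lmx1b+/- and 86.0, 84.3 and 98.0 in Lmx1b-/-) was also lower (log2 fold change -0.46 ± 0.10, adjusted p 0.00266). For the muscle-type Pfkm (88.5, 97.4 and 94.7 CPM in WT, 82.0, 81.1 and 70.5 in Lmx1b+/- and 92.6, 98.0 and 107 in Lmx1b-/-) the difference was small (log2 fold change -0.26 ± 0.10, adjusted p 0.0458) and was lost in 13 of 19 other settings. All 3 phosphofructokinase genes were thus lower, by unequal amounts. Hk1, the main brain hexokinase, was at 216, 207 and 215 CPM in WT, 166, 160.0 and 146 in Lmx1b+/- and 217, 219 and 256 in Lmx1b-/- (log2 fold change -0.43 ± 0.10, adjusted p 0.00457). Gpi1, which turns glucose 6-phosphate into fructose 6-phosphate, was at 261, 321 and 313 CPM in WT, 233, 235 and 224 in Lmx1b+/- and 291, 292 and 315 in Lmx1b-/- (log2 fold change -0.37 ± 0.11, adjusted p 0.0144). In both genes WT and Lmx1b-/- were close together and Lmx1b+/- was apart. With the trends of counts with gene length and GC content removed together, however, the log2 fold changes of Hk1, Gpi1 and Pfkl were -0.02, -0.03 and -0.02 and none of them passed the test, and Gpi1 lost its call in 6 of 19 settings. Tpi1, which interconverts the triose phosphates, went the other way, at 193, 210.5 and 187 CPM in WT, 231, 224 and 316 in Lmx1b+/- and 215, 238 and 201 in Lmx1b-/- (log2 fold change 0.38 ± 0.13, adjusted p 0.0377), and the highest value was that of 1 library, replicate 3. Its call was lost in 8 of 19 settings, among them scaling to library size, removal of the length trend and leaving out Lmx1b+/- replicate 3. The aldolases Aldoa (296, 339 and 315 CPM in WT, 327, 302 and 334 in Lmx1b+/- and 318, 338 and 337 in Lmx1b-/-) and Aldoc (245, 364 and 236 CPM in WT, 271, 254 and 281 in Lmx1b+/- and 316, 363 and 321 in Lmx1b-/-) did not pass the test (0.02 ± 0.10 and -0.07 ± 0.15). Hk2, the inducible hexokinase, was at 5.80, 7.93 and 4.80 CPM in WT, 2.97, 5.90 and 3.54 in Lmx1b+/- and 5.94, 5.38 and 5.30 in Lmx1b-/- and did not pass it either (-0.57 ± 0.25).

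Both PFKFB genes, whose products set the level of fructose 2,6-bisphosphate and so the pace of phosphofructokinase, were lower. Pfkfb2 was at 15.7, 18.2 and 18.7 CPM in WT, 13.4, 13.2 and 11.1 in Lmx1b+/- and 16.9, 16.6 and 16.5 in Lmx1b-/- (log2 fold change -0.48 ± 0.12, adjusted p 0.00693), and Pfkfb3 was at 57.1, 55.8 and 51.6 CPM in WT, 43.9, 44.5 and 39.0 in Lmx1b+/- and 52.5, 54.0 and 58.3 in Lmx1b-/- (log2 fold change -0.37 ± 0.09, adjusted p 0.00698). The 2 groups did not overlap in either gene. With length and GC trends removed Pfkfb3 stood at -0.05 on the log2 scale and lost its call, and Pfkfb2 lost its call with the length trend alone removed.

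In the lower pathway 1 of 6 genes was higher and 1 was lower. Pgk1 (ENSMUSG00000062070), phosphoglycerate kinase and the first ATP-forming enzyme of glycolysis, was at 85.3, 90.2 and 87.2 CPM in WT, 134, 124 and 184 in Lmx1b+/- and 114, 123 and 110.0 in Lmx1b-/-. The 3 groups did not overlap, with Lmx1b+/- highest and WT lowest (log2 fold change 0.75 ± 0.13, adjusted p 6.8e-04). Of the 40-base stretches of Pgk1 transcripts, 54.3% also occur in other genes, so its counts depend on how shared reads were counted. Eno2, the neuronal enolase, was at 127, 154 and 127 CPM in WT, 109, 105 and 105 in Lmx1b+/- and 132, 140.2 and 155 in Lmx1b-/- (log2 fold change -0.35 ± 0.10, adjusted p 0.0176), and its call was lost in 4 of 19 settings (-0.08 with length and GC trends removed). Eno1, the widely expressed enolase, was at 124, 151 and 148 CPM in WT, 153, 149 and 149 in Lmx1b+/- and 145, 151 and 141 in Lmx1b-/- (0.09 ± 0.10, not past the test). Gapdh, which oxidizes glyceraldehyde 3-phosphate, was at 50.2, 66.7 and 61.3 CPM in WT, 76.0, 59.7 and 71.3 in Lmx1b+/- and 57.3, 59.3 and 56.4 in Lmx1b-/- and shares sequence with 276 other genes. Pgam1, phosphoglycerate mutase, was at 114, 101 and 96.3 CPM in WT, 90.0, 104 and 96.6 in Lmx1b+/- and 97.8, 108 and 106 in Lmx1b-/-. Pkm, pyruvate kinase, was at 311, 342 and 326 CPM in WT, 385, 356 and 359 in Lmx1b+/- and 339.8, 352 and 354 in Lmx1b-/-, all Lmx1b+/- libraries above WT, but did not pass the test (log2 fold change 0.17 ± 0.10, adjusted p 0.196). With scaling to library size alone the fold changes of Aldoa, Gapdh, Eno1, Pkm, Pdha1 and Hif1a, all above 0 here and none past the test, were below 0. Other settings went the other way: Gapdh, Eno1 and Pkm passed as higher with length and GC trends removed, and Pkm and Hif1a with the length trend alone removed.

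At the pyruvate branch point, Ldhb, the lactate dehydrogenase subunit of oxidative cells, was at 114, 121 and 119 CPM in WT, 176, 145 and 187 in Lmx1b+/- and 131, 155 and 129 in Lmx1b-/- (log2 fold change 0.52 ± 0.11, adjusted p 0.00297). Ldha was at 196, 216 and 203 CPM in WT, 209, 255 and 306 in Lmx1b+/- and 226, 242 and 232 in Lmx1b-/-, and 1 Lmx1b+/- library lay among the WT values (log2 fold change 0.33 ± 0.13, adjusted p 0.0574). Ldha passed as higher in some other settings, among them DESeq2 and the removal of length and GC trends. Pdhb, a subunit of the first enzyme of the pyruvate dehydrogenase complex, was at 65.4, 72.7 and 74.7 CPM in WT, 88.9, 95.3 and 113 in Lmx1b+/- and 79.3, 85.1 and 79.3 in Lmx1b-/- (log2 fold change 0.48 ± 0.10, adjusted p 0.00280). The calls of Ldhb and Pdhb were lost with scaling to library size alone, and that of Ldhb also with the length trend removed. Its partner subunit Pdha1 (135, 150.2 and 125 CPM in WT, 133, 125 and 179.8 in Lmx1b+/- and 148, 176 and 154 in Lmx1b-/-) and the second enzyme of the complex, Dlat (57.0, 63.7 and 56.5 CPM in WT, 50.6, 51.7 and 53.2 in Lmx1b+/- and 59.0, 65.5 and 65.1 in Lmx1b-/-), did not pass the test (0.10 ± 0.14 and -0.19 ± 0.09). Both kinases that inhibit the complex were lower. Pdk1 was at 62.7, 58.9 and 57.2 CPM in WT, 34.9, 43.6 and 43.5 in Lmx1b+/- and 56.4, 58.9 and 55.4 in Lmx1b-/- (log2 fold change -0.55 ± 0.10, adjusted p 9.6e-04). Pdk2 was at 22.7, 18.3 and 17.8 CPM in WT, 9.92, 17.4 and 11.9 in Lmx1b+/- and 18.4, 17.8 and 18.9 in Lmx1b-/- (log2 fold change -0.58 ± 0.18, adjusted p 0.0204), with the second Lmx1b+/- library just under WT. The call of Pdk2 was lost without WT replicate 1 or without Lmx1b+/- replicate 1 or 3.

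Among the regulators, Epas1 (ENSMUSG00000024140) had the lowest fold change of the 36 genes, at 36, 26.5 and 26.0 CPM in WT, 12.8, 16.5 and 11.9 in Lmx1b+/- and 23.7, 23.5 and 24.8 in Lmx1b-/- (log2 fold change -1.10 ± 0.15, adjusted p 1.3e-04). Every Lmx1b+/- library was under every other library of the experiment. Hif1a was at 109, 123 and 112 CPM in WT, 136, 128 and 140.2 in Lmx1b+/- and 120.3, 123 and 117 in Lmx1b-/-, with all Lmx1b+/- libraries above WT but short of the threshold (log2 fold change 0.23 ± 0.09, adjusted p 0.0573). The hydroxylases Egln1 (74.4, 52.5 and 61.8 CPM in WT, 55.5, 53.0 and 50 in Lmx1b+/- and 54.1, 58.0 and 58.3 in Lmx1b-/-) and Egln3 (11.4, 10.3 and 11.3 CPM in WT, 7.78, 11.2 and 9.75 in Lmx1b+/- and 10.8, 9.74 and 9.09 in Lmx1b-/-) did not pass the test (-0.25 ± 0.12 and -0.20 ± 0.15). Vegfa, the angiogenic growth factor, was at 72.7, 76.0 and 58.2 CPM in WT, 29.6, 48.0 and 37.5 in Lmx1b+/- and 55.7, 49.6 and 62.3 in Lmx1b-/- (log2 fold change -0.84 ± 0.16, adjusted p 0.00124). Bnip3, a mitophagy receptor, was higher, at 18.2, 16.0 and 15.6 CPM in WT, 19.8, 20.3 and 27.4 in Lmx1b+/- and 18.1, 20.2 and 18.7 in Lmx1b-/- (log2 fold change 0.44 ± 0.14, adjusted p 0.0222), and 52.3% of its 40-base stretches occur in other genes. Its call was lost in 6 of 19 settings, among them scaling to library size and leaving out Lmx1b+/- replicate 3. Ankrd37 was at 5.31, 4.16 and 4.71 CPM in WT, 5.79, 7.19 and 5.85 in Lmx1b+/- and 3.42, 4.48 and 4.82 in Lmx1b-/- (0.41 ± 0.18) and Ddit4, an inhibitor of mTORC1 signalling, at 55.3, 33.1 and 37.9 CPM in WT, 33.8, 44.0 and 36.9 in Lmx1b+/- and 37.7, 42.9 and 42.3 in Lmx1b-/- (-0.14 ± 0.16), neither past the test. Of the HIF targets in this set, then, some were lower and some higher, and they did not move as a block.

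**Figure D2:**
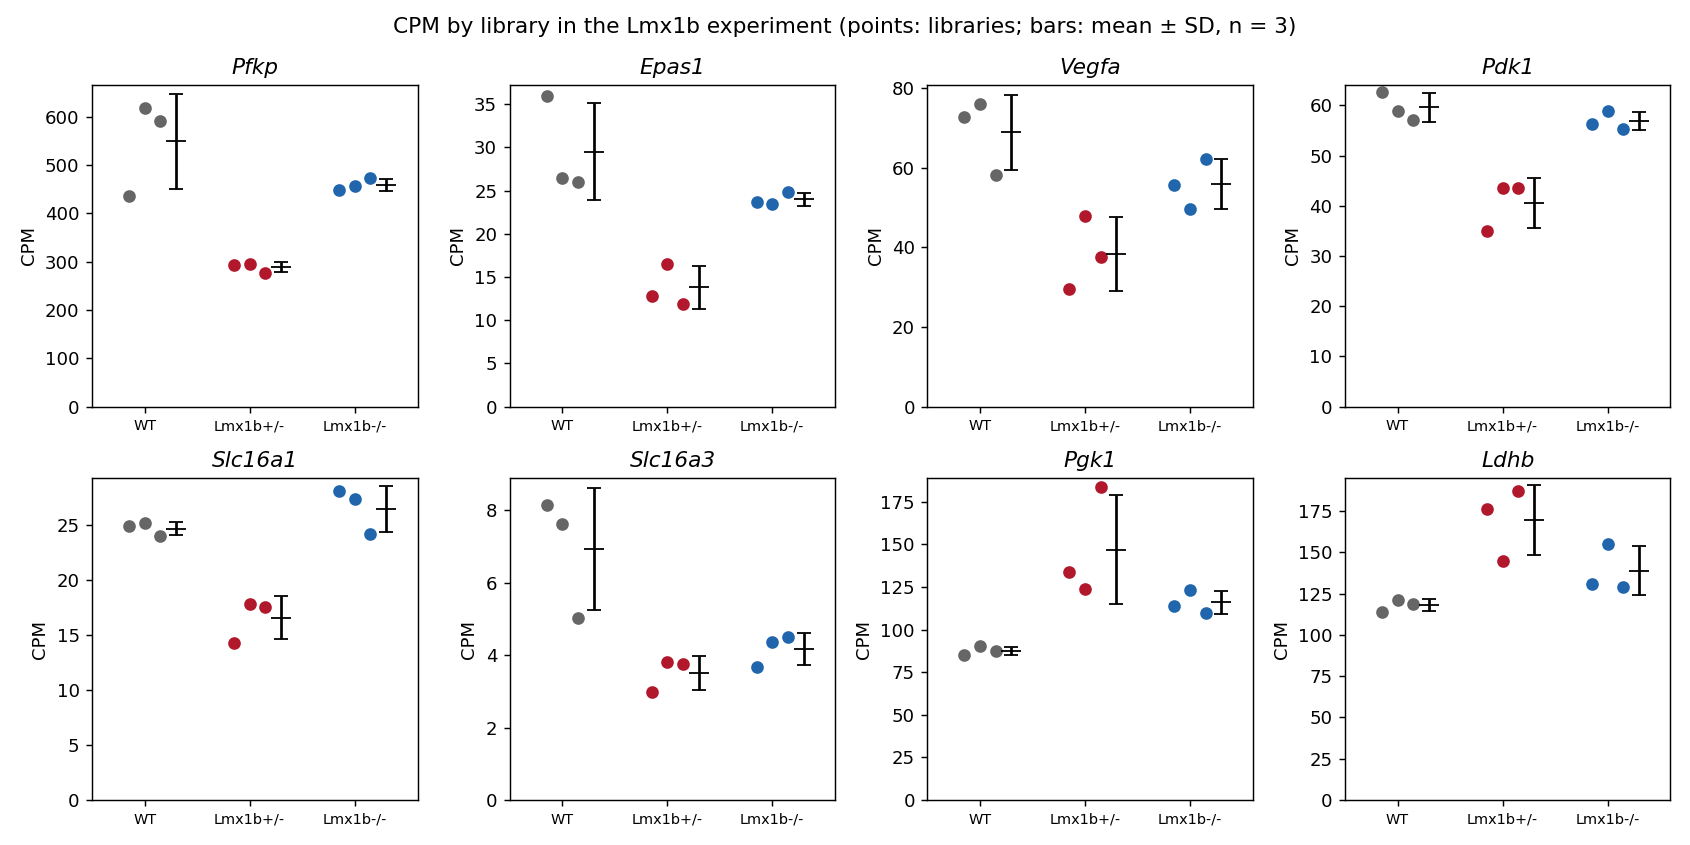
CPM (linear axis from 0) of 8 genes in the 9 libraries of the Lmx1b experiment, 1 point per library, with the mean ± SD of each group of 3 beside the points. Pfkp, Epas1, Vegfa, Pdk1, Slc16a1 and Slc16a3 are lower and Pgk1 and Ldhb higher in Lmx1b+/- than in WT, with no overlap between those groups.

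Brainstem labelled Lmx1b-/- was much nearer to WT. None of the 36 genes passed the test, beside 0.0184% of all genes (4 of 21729), and 3 had an unadjusted p under 0.05 in edgeR, beside 8.09% of all genes. DESeq2 also called 0, with 5 at an unadjusted p under 0.05. The 3 genes were Slc2a1 (log2 fold change -0.52 ± 0.14, adjusted p 0.508), Slc16a3 (log2 fold change -0.72 ± 0.20, adjusted p 0.532) and Pgk1 (log2 fold change 0.40 ± 0.13, adjusted p 0.538). The groups did not overlap for 8 genes (5 higher, 3 lower), 22.2% of the 36 beside 18.0% of all genes. The median log2 fold change was 0.00, and 0.01 over all genes.

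Set against Lmx1b+/-, the Lmx1b-/- libraries differed in 15 of the 36 genes, 14 higher and 1 lower, beside 25.5% of all genes (11.5% higher and 14.0% lower). CPM did not overlap for 22 genes, beside 42.4% of all genes. This comparison shares the Lmx1b+/- libraries with the first one, so the values stand side by side and are no second test of it. Epas1 (log2 fold change 0.80 ± 0.15, adjusted p 0.00196), Slc16a1 (log2 fold change 0.67 ± 0.11, adjusted p 9.7e-04) and Pfkp (log2 fold change 0.67 ± 0.13, adjusted p 0.00235) had the largest fold changes among the 14 higher genes. Hk1 (log2 fold change 0.55 ± 0.10, adjusted p 0.00160), Vegfa (log2 fold change 0.54 ± 0.16, adjusted p 0.0244) and Pdk1 (log2 fold change 0.48 ± 0.10, adjusted p 0.00359) followed. Dlat, which had not passed the test against WT, was higher (log2 fold change 0.29 ± 0.09, adjusted p 0.0304), and Ankrd37 was the gene that was lower (log2 fold change -0.56 ± 0.18, adjusted p 0.0336). Slc16a3 did not pass it (log2 fold change 0.25 ± 0.20, adjusted p 0.401). Epas1 and Slc16a1 passed the test in each of the 19 other settings, and each of the other 13 genes lost its call in 1 to 8 of them. Without Lmx1b-/- replicate 3, 7 of the 36 genes were called.

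**Figure D3:**
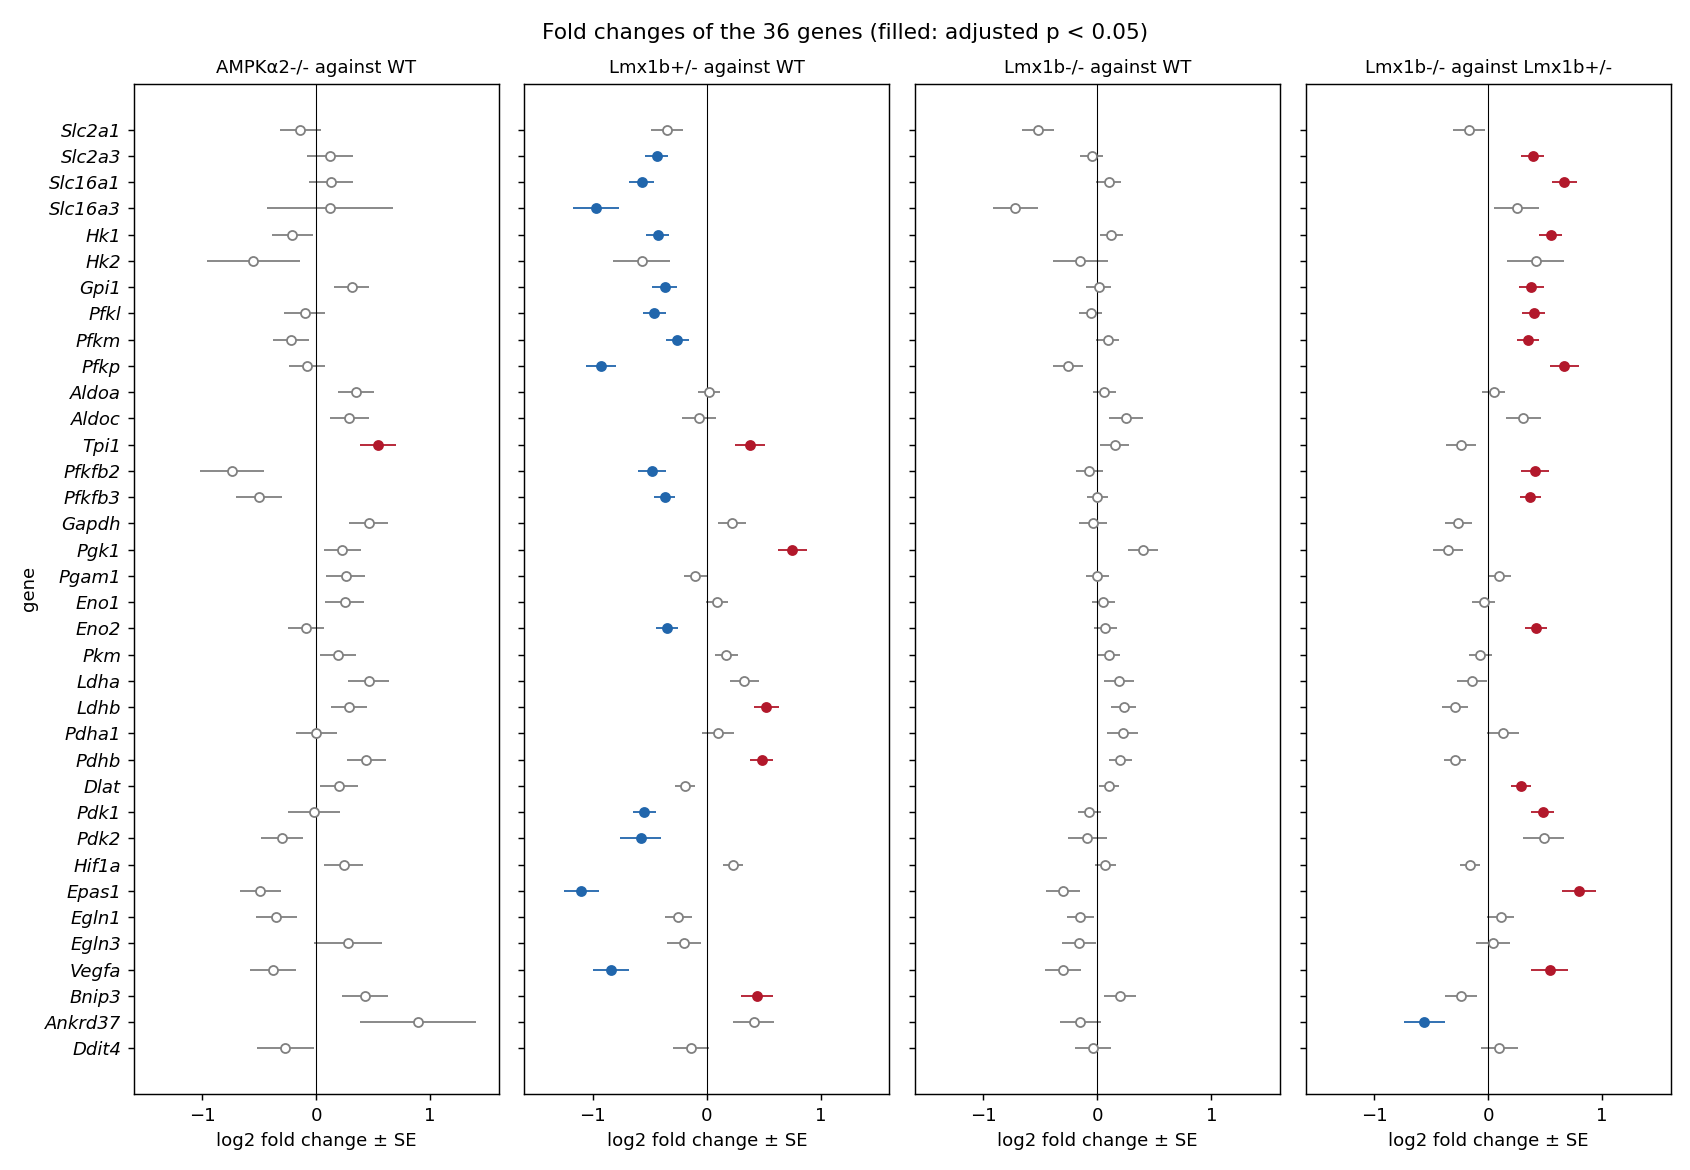
Log2 fold change ± SE of the 36 genes (rows, ordered by role) in the 4 comparisons (panels), with 3 libraries per group; filled points passed an adjusted p of 0.05 (red higher, blue lower) and open points did not. There are 1, 20, 0 and 15 filled points from left to right.

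In the AMPK experiment 1 of the 36 genes passed the test (2.78%), beside 8.94% of the 17397 genes tested (3.77% higher and 5.17% lower). It was Tpi1 (ENSMUSG00000023456), at 282, 249.6 and 272 CPM (WT) and 417, 367 and 396 CPM (AMPKα2-/-) (log2 fold change 0.54 ± 0.16, adjusted p 0.0327). All AMPKα2-/- libraries were above all WT libraries, but the call was lost in 8 of 16 other settings, among them the 4 deeper libraries alone and the removal of any 1 AMPKα2-/- library or of WT replicate 2. In all, 9 of the 36 genes (25.0%) had an unadjusted p under 0.05, beside 24.6% of all genes. Groups did not overlap for 16 genes (10 higher, 6 lower, 44.4%), beside 26.6% of all genes, with a median log2 fold change of 0.13 against -0.01 over all genes. With scaling to library size alone the median of all genes was -0.18 and the calls were 0 higher and 3 lower. Of the cell markers, 4 of 10 neuron markers were higher and 1 was lower in AMPKα2-/-, 7 of 7 tested skeletal muscle markers were lower, and 0 of 9 astrocyte and 0 of 9 oligodendrocyte lineage markers passed the edgeR test (0 and 1 at an unadjusted p under 0.05). The muscle markers summed to 1027 CPM in WT replicate 3 and to 9.07 to 16.6 CPM in the other libraries. The groups overlapped for each of the 7. Choroid plexus markers summed to 36.9 to 133 CPM in AMPKα2-/- and 9.98 to 18.8 CPM in WT. Of these, 2 of 4 tested were higher, Ttr (3.80 ± 0.43, adjusted p 1.9e-05) and Kcnj13 (3.98 ± 0.86, adjusted p 0.00627). Also higher were 2 of 5 tested erythroid markers. Of 6 tested mural markers Acta2 was higher (2.46 ± 0.51), though its groups overlapped, and 4 lay below 0, among them Cspg4 (-0.66 ± 0.28). Of 6 meninges and fibroblast markers Dcn was higher (1.57 ± 0.35), and 2 lay below 0, Col1a1 (-1.54 ± 0.56) and Col1a2 (-0.52 ± 0.24). None of these mural or fibroblast markers was called lower. The part of all these cells in the values of the 36 genes was not tested.

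The other 8 genes with an unadjusted p under 0.05 are given as values. Gapdh was at 91.4, 76.5 and 76.9 CPM (WT) and 112, 114 and 118 CPM (AMPKα2-/-) (log2 fold change 0.46 ± 0.17, adjusted p 0.0900), Ldha at 71.0, 69.9 and 61.9 CPM (WT) and 103, 86.5 and 78.6 CPM (AMPKα2-/-) (log2 fold change 0.46 ± 0.18, adjusted p 0.105) and Pdhb at 65.8, 59.9 and 63.7 CPM (WT) and 90.3, 83.0 and 87.6 CPM (AMPKα2-/-) (log2 fold change 0.44 ± 0.17, adjusted p 0.106). In these 3 genes every AMPKα2-/- library was above every WT library. Aldoa was at 889.9, 845 and 763 CPM (WT) and 1011, 1038 and 1145 CPM (AMPKα2-/-) (log2 fold change 0.35 ± 0.16, adjusted p 0.176) and Bnip3 at 35.6, 53.2 and 35.0 CPM (WT) and 48.6, 47.1 and 63.5 CPM (AMPKα2-/-) (log2 fold change 0.43 ± 0.20, adjusted p 0.198). Pfkfb2 was at 15.7, 26.6 and 20.8 CPM (WT) and 12.2, 12 and 3.02 CPM (AMPKα2-/-) (log2 fold change -0.74 ± 0.28, adjusted p 0.0977), the value of AMPKα2-/- replicate 3 being under the limit of 3 counts. Pfkfb3 was at 51.5, 56.6 and 78.2 CPM (WT) and 48.4, 46.1 and 30.2 CPM (AMPKα2-/-) (log2 fold change -0.50 ± 0.20, adjusted p 0.127). Epas1 was at 112, 113 and 162 CPM (WT) and 104, 91.5 and 78.6 CPM (AMPKα2-/-) (log2 fold change -0.49 ± 0.18, adjusted p 0.0955), and WT replicate 3 was the highest. These last 3 genes were lower in every AMPKα2-/- library than in any WT library. Without WT replicate 1, 6 of the 36 genes were called: Tpi1, Gapdh and Ldha higher, and Pfkfb2, Pfkfb3 and Epas1 lower.

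The main genes of the other steps did not pass the test. Hk1 was at 183, 196 and 200.2 CPM (WT) and 201, 161 and 118 CPM (AMPKα2-/-), Gpi1 at 368, 363 and 348 CPM (WT) and 462, 421 and 453 CPM (AMPKα2-/-) and Pfkm at 299, 319 and 331 CPM (WT) and 279, 289 and 236 CPM (AMPKα2-/-). Aldoc was at 1547, 1378 and 1137 CPM (WT) and 1515, 1693 and 1777 CPM (AMPKα2-/-), Pgk1 at 166, 133 and 140.1 CPM (WT) and 179.6, 181 and 154 CPM (AMPKα2-/-) and Pgam1 at 178, 163 and 133 CPM (WT) and 205, 181 and 172 CPM (AMPKα2-/-). Eno2 was at 614, 649 and 652 CPM (WT) and 566, 633 and 604 CPM (AMPKα2-/-), Pkm at 727, 835 and 796 CPM (WT) and 859, 861 and 970.0 CPM (AMPKα2-/-) and Ldhb at 442, 376 and 403 CPM (WT) and 488, 543 and 465 CPM (AMPKα2-/-). For Gpi1, Pkm and Ldhb all AMPKα2-/- libraries were above WT, and for Pfkm all were under WT. Slc2a1 was at 94.3, 83.2 and 101 CPM (WT) and 100.5, 73.5 and 81.6 CPM (AMPKα2-/-), Slc16a1 at 66.8, 59.9 and 58.0 CPM (WT) and 83.0, 61.6 and 45.3 CPM (AMPKα2-/-) and Pdk2 at 99.1, 89.8 and 92.5 CPM (WT) and 89.3, 70.2 and 63.5 CPM (AMPKα2-/-). Pdha1 was at 143, 136 and 143 CPM (WT) and 165, 150.2 and 84.6 CPM (AMPKα2-/-), Hif1a at 86.5, 83.2 and 90.4 CPM (WT) and 109, 92.6 and 115 CPM (AMPKα2-/-) and Egln1 at 78.8, 69.9 and 69.2 CPM (WT) and 60.7, 59.9 and 42.3 CPM (AMPKα2-/-). Hif1a was higher and Egln1 and Pdk2 lower in each AMPKα2-/- library than in WT, none past the test. Hk2, Slc16a3 and Ankrd37 had 0 counts in both shallow libraries, where 3 counts would be 9.98 and 9.07 CPM, and at most 6.25 CPM in the others.

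Genes of the same step can stand in for each other, so the make-up of each step was taken from the deposited RPKM, which corrects for gene length, as the share of a gene in its family within a library. Such shares depend on how reads shared with other genes were counted. Of the 40-base stretches, 27.3% of Eno1 and 0.494% of Eno2 also occur in other genes, and 14.1% of Ldha and 27% of Ldhb. Phosphofructokinase transcripts were 79.2% ± 0.414 (SD, n = 3) Pfkm in WT of the AMPK experiment and 33.9% ± 1.87 in prenatal WT, where Pfkp was the main form (13.1% ± 0.943 and 49.1% ± 4.21). Ldha was 7.32% ± 0.687 of lactate dehydrogenase in the AMPK WT and 45.1% ± 0.522 in the prenatal WT. Pdk1 was 8.73% ± 2.96 and 55.4% ± 2.18 of both PDK genes. Epas1 was 60.7% ± 4.17 and 21.4% ± 3.95 of the HIF alpha transcripts, Eno2 79.6% ± 3.80 and 52.4% ± 2.53 of enolase, and Slc2a1 78.0% ± 4.10 and 55.0% ± 6.24 of the glucose transporters. The muscle-type phosphofructokinase, the neuronal enolase and the lactate dehydrogenase subunit of oxidative cells thus held larger shares in the AMPK WT. The neuronal glucose transporter Slc2a3 held a smaller one there (22.0% ± 4.10 against 45.0% ± 6.24). Astrocyte and oligodendrocyte markers summed to 3617 to 5582 and 11903 to 20636 CPM there, against 1073 to 1476 and 400.0 to 467 CPM in the prenatal WT. Mbp, a myelin protein gene whose transcripts become abundant as myelin forms after birth, stood at 6801 to 11802 CPM in the AMPK WT and 52.5 to 68.1 CPM in the prenatal WT. As no age is tied to the AMPK libraries, whether such levels go with postnatal days 1 to 5 was not tested. The experiments were tabulated separately, so age, cell makeup and batch cannot be told apart and no test was made.

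The same shares were compared within each experiment. Pfkp was 49.1% ± 4.21 of phosphofructokinase in WT and 39.2% ± 1.15 in Lmx1b+/-, with 44.3% ± 1.17 in Lmx1b-/-. Epas1 was 9.77% ± 1.98 of HIF alpha in Lmx1b+/- and 17.4% ± 0.813 in Lmx1b-/-, and Eno1 was 55.2% ± 0.193 of enolase in Lmx1b+/- against 47.6% ± 2.53 in WT. In the AMPK experiment Epas1 was 47.7% ± 5.01 of HIF alpha in AMPKα2-/-. None of these shares overlapped between mutant and WT except that of Pfkp in Lmx1b-/-. Shares in other families did overlap between Lmx1b+/- and WT. Among them were Ldha (41.7% ± 5.02 against 45.1% ± 0.522 in WT), Pdk1 (56.4% ± 5.15 against 55.4% ± 2.18) and Slc2a1 (56.7% ± 3.08 against 55.0% ± 6.24). The shares were not tested, and with 3 against 3 libraries an exact permutation test cannot go below 0.10.

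**Figure D4:**
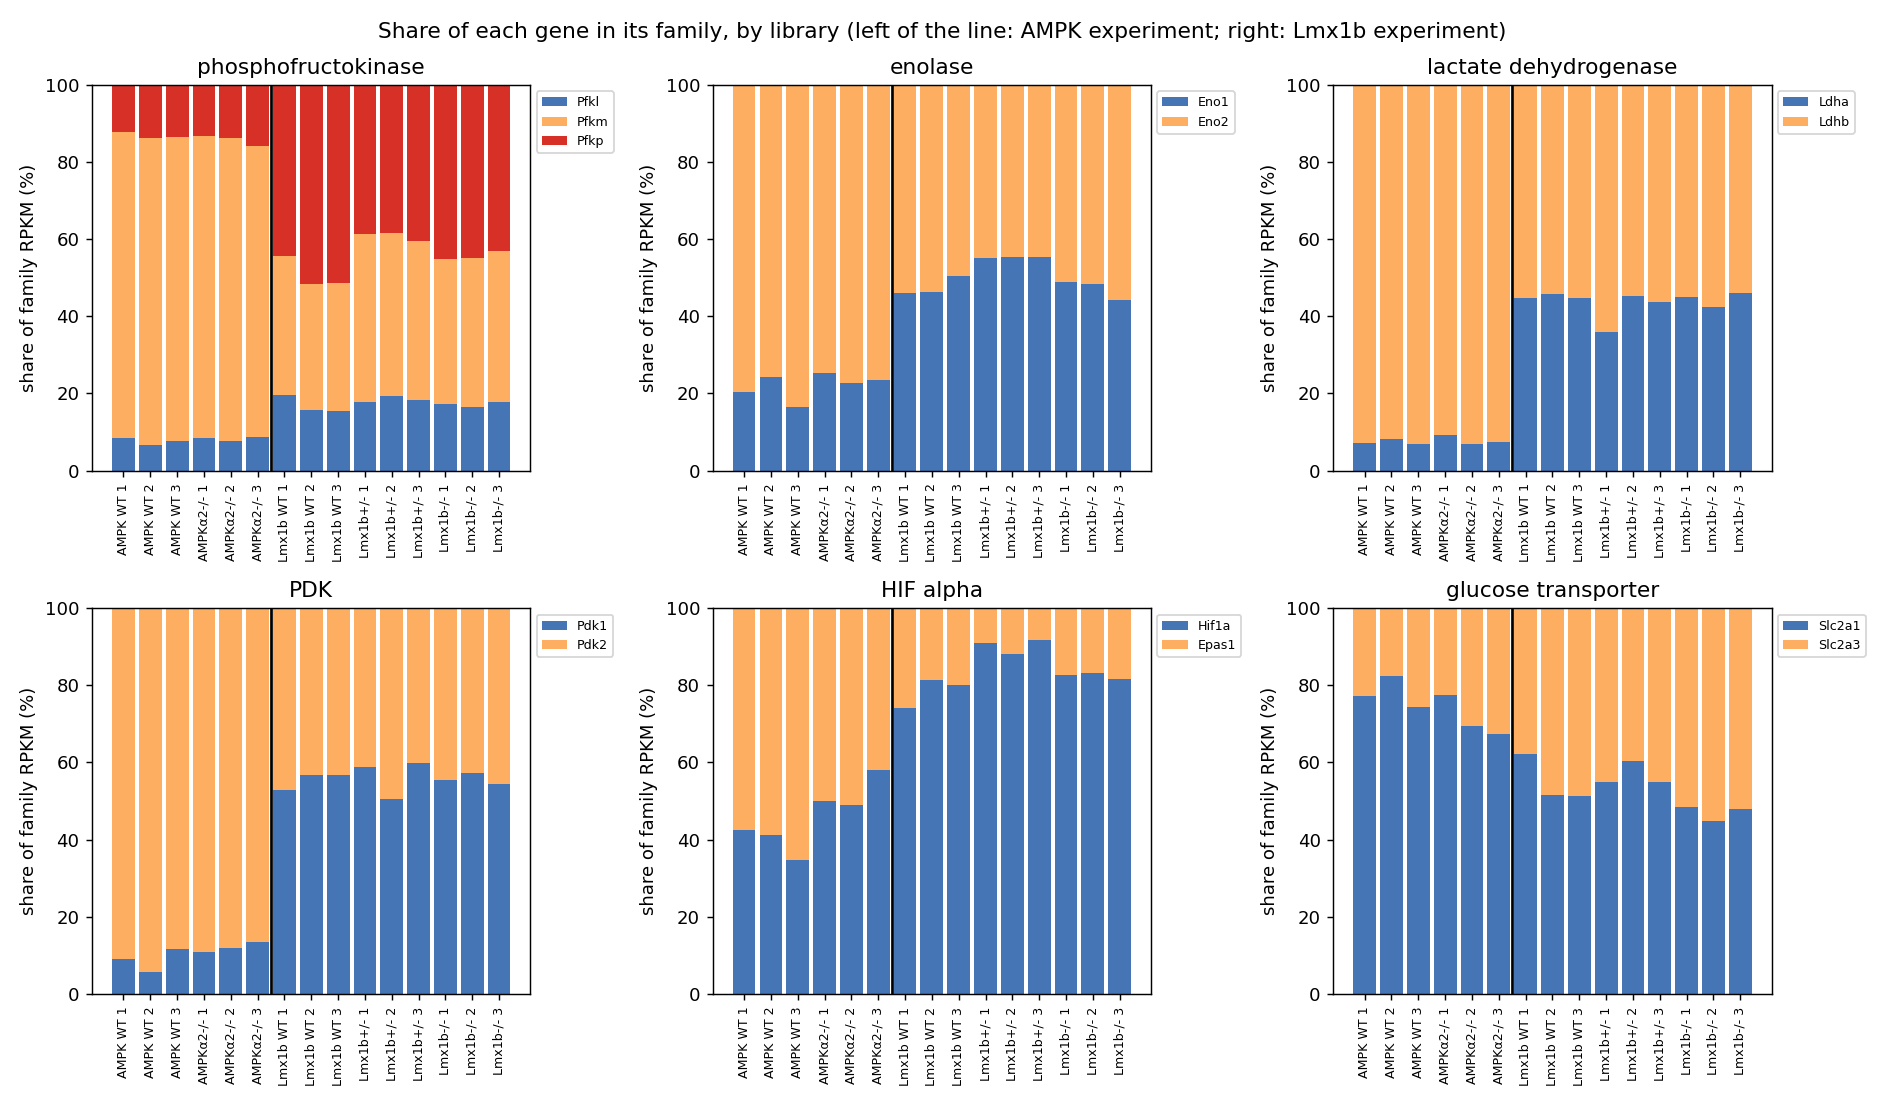
Share of each gene in the summed RPKM of its family (percent, stacked to 100) in each of the 15 libraries, for 6 families; the line separates the experiments. Pfkm, Eno2, Ldhb and Pdk2 fill most of their bars in the 6 libraries of the AMPK experiment and less in the 9 prenatal libraries.

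The 20 calls in Lmx1b+/- went with gene length. The 5 higher genes had a median length of 2265 bp and the 15 lower genes of 6452 bp, and the same held for all called genes (1786 and 6250 bp). Spearman's rho between length and log2 fold change was -0.62 over the 36 genes and -0.41 over all tested genes, a description across genes of shared libraries. In AMPKα2-/- it was -0.47 and -0.41. When the trend of counts with length was removed from each library, 12 of the 36 genes were called in Lmx1b+/-, 4 higher and 8 lower, 7 in Lmx1b-/- against Lmx1b+/- and 0 in AMPKα2-/-. Of the 5 higher genes only Pgk1 and Pdhb kept their call, and Pkm and Hif1a, also higher, were new among the calls. Both also passed in some other settings, among them the removal of the GC trend for Pkm and DESeq2 for Hif1a. Among the 7, Pdhb and Hif1a had not passed before it. Pfkp, Pgk1, Slc16a1, Slc16a3, Pdk1, Epas1 and Vegfa passed the test against WT in Lmx1b+/- in each of the 19 other settings, the length correction included. Of 12 transcripts taken here as nuclear-retained, 6 were lower in Lmx1b+/- and 5 in AMPKα2-/-, beside 17.3% and 5.17% of all genes. The list also holds protein-coding genes, whose mRNAs need not stay in the nucleus. The 6 were Meg3, Snhg11, Leng8, Ccnl1, Ccnl2 and Srsf5, and the 5 were Neat1, Meg3, Miat, Snhg11 and Leng8. In Lmx1b+/- Malat1 (0.38 ± 0.18) and Neat1 (-0.40 ± 0.27) did not pass the test. The part of length, RNA quality or nuclear RNA in the calls was not tested.

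**Figure D5:**
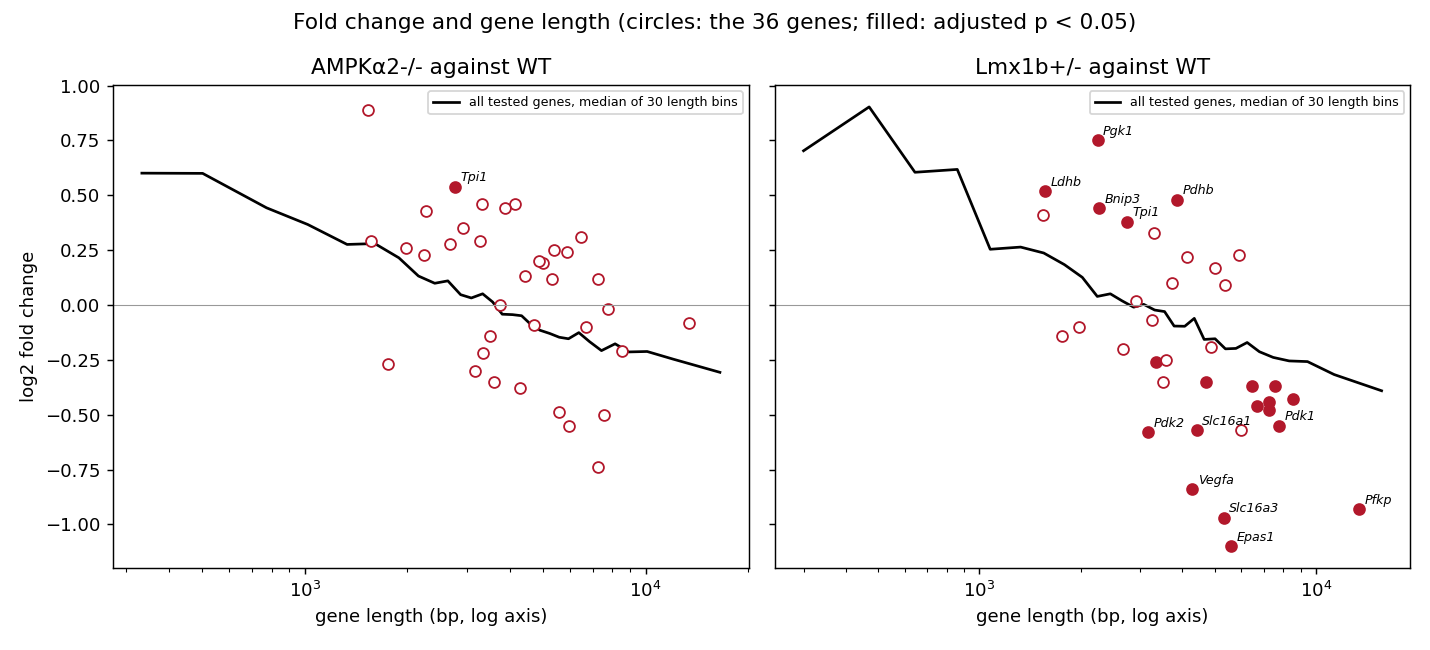
Log2 fold change against gene length (bp, log axis) for the 36 genes (circles, filled where the adjusted p is under 0.05) and for all tested genes (line, medians of 30 length bins), in AMPKα2-/- and Lmx1b+/- against WT. The line falls with length in both panels, and Epas1, Slc16a3, Vegfa and Pfkp lie below it in Lmx1b+/-.

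Further genes of the same pathways were taken from 2 wider lists. Of 36 other tested genes of glycolysis and pyruvate metabolism, 9 were higher and 3 lower in Lmx1b+/- (33.3% called, beside 36.7% of all genes, a share near the background), among them the mitochondrial pyruvate carrier subunits Mpc1 (log2 fold change 0.93 ± 0.11, adjusted p 5.8e-05) and Mpc2 (log2 fold change 0.76 ± 0.11, adjusted p 2e-04), malate dehydrogenase Mdh1 (log2 fold change 0.89 ± 0.13, adjusted p 1.9e-04) and Bpgm (log2 fold change 0.91 ± 0.11, adjusted p 3.9e-05), the bisphosphoglycerate mutase of red cells. The lower ones were Slc16a7, Pdpr and Pck2, whose calls were lost in 6, 4 and 12 of 19 settings. Of 33 other hypoxia genes 57.6% were called, beside 36.7% of all genes. Of these, 9 were higher, led by Mif (log2 fold change 0.81 ± 0.11, adjusted p 1.1e-04), Fam162a (log2 fold change 0.93 ± 0.13, adjusted p 1.5e-04) and Bnip3l (log2 fold change 0.64 ± 0.09, adjusted p 2.1e-04), a mitophagy receptor needed for red cell maturation. The 10 lower ones were led by Rora (log2 fold change -1.02 ± 0.12, adjusted p 4.9e-05), the VEGF receptor Flt1 (log2 fold change -0.97 ± 0.17, adjusted p 7.3e-04), Ndrg1 (log2 fold change -0.73 ± 0.13, adjusted p 9.2e-04) and adrenomedullin, Adm (log2 fold change -1.62 ± 0.31, adjusted p 0.00142). All 8 tested erythroid markers were higher in the same libraries, beside 19.4% of all genes. In Lmx1b-/- against WT 0 genes of either list passed the edgeR test, with 4 and 6 at an unadjusted p under 0.05. Between Lmx1b-/- and Lmx1b+/- 25.0% and 30.3% were called (2 higher and 7 lower, 4 higher and 6 lower), beside 25.5% of all genes. In AMPKα2-/- 5 of 30 (16.7%) and 1 of 32 (3.12%) passed it, beside 8.94% of all genes: Bsg, the MCT chaperone (log2 fold change 0.57 ± 0.17, adjusted p 0.0398), Mdh1 (log2 fold change 0.54 ± 0.16, adjusted p 0.0327) and Mif (log2 fold change 0.73 ± 0.19, adjusted p 0.0187) were higher, and Pcx, pyruvate carboxylase (log2 fold change -0.63 ± 0.17, adjusted p 0.0264), Pdpr (log2 fold change -0.91 ± 0.29, adjusted p 0.0476) and the muscle enolase Eno3 (log2 fold change -2.78 ± 0.59, adjusted p 0.00525) lower. Eno3 reached 35.5 CPM in WT, in the library with skeletal muscle transcripts, and at most 3.89 CPM in AMPKα2-/-. All 6 calls were lost with the 4 deeper libraries alone, and that of Eno3 also without WT replicate 3.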

How the data were processed

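RNA from mouse brainstem was sequenced in 15 libraries (2 experiments, 5 groups of 3). Per the labels and the submitters' processing notes, reads were prepared with a directional kit and aligned with HISAT2 to GRCm39; the counter, the annotation release and the use of molecular indexes are not given in the sources used here. The authors deposited raw counts per Ensembl gene and RPKM values (counts relative to gene length and library total), 1 table of each unit per experiment. Replicates were not pooled. Symbols were matched for 51884 of 57180 IDs (90.7%).

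Counts were tested with edgeR 4.0.16 in R 4.3.3: filterByExpr, TMM scaling, quasi-likelihood F test, Benjamini-Hochberg adjustment over all genes tested (17397 and 21729), with 1 fit for the 6 AMPK libraries and 1 for the 9 Lmx1b libraries. A gene passed, or was called, at an adjusted p under 0.05. The SE was derived from the fold change and F. Gene length is the length the deposited RPKM imply. A floor of 3 counts per library was used. The scripts were tested on simulated counts: in the AMPK libraries, whose depths are unequal, DESeq2 1.42.0 recovered fewer of the changed genes than the quasi-likelihood test. A criterion that asked all tests for the same recovery was therefore kept for edgeR only.

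The 36 genes, the wider lists and the settings were chosen with earlier results of these data known. Genes were named by rule: all 36 were accounted for, with every library's value for those called or leading their step, and at most 5 called genes per list, direction and comparison. Alternatives were RLE or library-size scaling, no filter, DESeq2, the likelihood-ratio test, a replicate block, removal of trends with length (lowess span 0.3) and leaving out libraries; removal of trends with GC content was added after seeing the data. Replicate numbers did not pair the libraries. Promoter windows are from RefSeq (GRCm38.p6); their coordinates are not those of the counts' build.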

Additional observations from a re-analysis of the deposited data

How the results depend on the processing

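No fold change of the 36 genes that passed the test changed sign under any setting (1, 20 and 15 calls). Of the values that did not pass it, 13 of 35 in AMPKα2-/-, 8 of 16 in Lmx1b+/-, 12 of 36 in Lmx1b-/- against WT and 11 of 21 between the mutants changed sign under at least 1 setting, all of them within 0.29 of 0 on the log2 scale. Of the called genes of the wider lists 1 changed sign, Pck2 in Lmx1b+/-, from -0.39 to 0.01 with length and GC trends removed. The number of the 36 genes called in AMPKα2-/- (1) was 3 with library size only, 0 with the length trend removed, 2 with length and GC trends removed, 0 with the 4 deeper libraries only, and 0 to 6 when 1 library was left out. The 3 were Pfkfb2, Pfkfb3 and Epas1 and the 2 were Gpi1 and Gapdh, so Tpi1 was in neither. In Lmx1b+/- against WT the 20 calls became 12 with the length trend removed, Pkm and Hif1a being new among them, and 16 to 22 without 1 library. In Lmx1b-/- against WT the 0 calls became 2 with no filter on low counts (Slc2a1 and Slc16a3) and stayed 0 without any 1 library. In Lmx1b-/- against Lmx1b+/- the 15 calls became 7 with the length trend removed, 6 with length and GC trends removed, and 7 to 17 without 1 library, the lowest without Lmx1b-/- replicate 3. Pdhb and Hif1a were new with the length trend removed, and Pdhb with both trends removed. The cause of these changes was not tested. Scaling to library size alone gave 1 higher and 19 lower genes in Lmx1b+/- in place of 5 and 15, and 8 and 8 with length and GC trends removed.

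With the replicate block the calls were 1 in AMPKα2-/-, 18 and 0 in Lmx1b+/- and Lmx1b-/- against WT, and 13 between the mutants; deviations of libraries with the same number correlated at -0.18 to 0.15, so the numbers were not taken as pairs. The depth of 2 AMPK libraries limits what could be detected below about 10 CPM. No group had the size needed for a check of outlying libraries.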
